A study of Mus musculus with 9 samples.

Results

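The genes described here are 8 components of the extrinsic, death receptor route to apoptosis: the ligand *Tnfsf10*, the receptors *Fas* and *Tnfrsf10b*, the adaptor *Fadd*, the initiator caspase *Casp8*, its relative and inhibitor *Cflar*, the effector caspase *Casp6* and the caspase inhibitor *Xiap*. They were chosen by symbol and matched to 8 of the 54838 mouse gene identifiers for which expression was given, and all 8 were among the 12702 genes that reached 1 FPKM in at least 2 libraries and were tested. FPKM counts sequenced fragments relative to transcript length and to the size of the library, so levels of different genes can be set side by side.

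In this pathway a trimeric ligand such as FasL or TRAIL clusters receptors that carry a death domain in their cytoplasmic tail, and the adaptor FADD joins them to procaspase-8. Procaspase-8 molecules brought together in this way cut and activate one another, and active caspase-8 then cleaves the effector caspases. cFLIP, the product of *Cflar*, resembles caspase-8 but lacks its catalytic activity, and by pairing with it at FADD it restrains apoptosis and also necroptosis, the lytic death that runs through RIPK1 and RIPK3. In the intestinal epithelium caspase-8 and cFLIP are both needed to keep cells alive, since their loss exposes crypt cells to these routes.

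Small intestinal organoids, epithelial cultures grown from crypts, came from *Mettl3* fl/fl mice, in which both copies of the gene for this RNA m6A methyltransferase are floxed, and which carry *Vil-CreERT2*, a tamoxifen-dependent Cre driven by the epithelial Villin promoter. All groups carried this genotype, and none lacked Cre. Ethanol (EtOH) or 500 nM 4-hydroxytamoxifen (4-OHT) was given for 2 days, and the solvent DMSO or the RIPK1 kinase inhibitor necrostatin-1 (Nec-1) for 5 days, with Nec-1 at 5 µM in a legend and at 10 µM in the methods. RNA-seq gave 7 libraries: 2 for EtOH DMSO, 2 for EtOH Nec-1, 2 for 4-OHT DMSO and 1 for 4-OHT Nec-1. In general terms the methods speak of independently repeated experiments, but nothing in the sources used here says whether these paired libraries came from separate animals or cultures, so the p-values measure the spread between these libraries only, which may be technical.

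The level of *Mettl3*, the targeted gene, went against the labels: EtOH DMSO libraries held 2.70 and 2.71 FPKM, and those labelled 4-OHT DMSO 3.72 and 4.14 FPKM, that is, higher where the gene should have been excised. A value over the whole gene cannot show the excised exons, so every direction between EtOH and 4-OHT rests on the labels. FPKM summed to 450207 to 498712 per library and relative depth was estimated at 0.851 to 1.03 times the first EtOH DMSO library, while fragment counts are unknown. That estimate cannot show a difference in depth by a factor of 2, so it does not establish even depth. The epithelial markers *Epcam*, *Cdh1*, *Krt8*, *Krt20* and *Cdx2* were all above 1 FPKM, endothelial and tuft markers stayed below 1 FPKM, and 2 of 6 immune markers (*Itgam* and *Cd68*) and 1 of 5 fibroblast markers (*Vim*) reached it in some library. The leukocyte marker *Ptprc* never exceeded 0.0497 FPKM. Summed Paneth cell markers moved with 4-OHT, from 5695 to 6052 FPKM in EtOH DMSO to 15080 to 15336 FPKM in 4-OHT DMSO. Summed goblet markers (1256 and 1350 to 1864 and 2063 FPKM) and enteroendocrine markers (208 and 216 to 409 and 454 FPKM) were higher as well. Sums were lower for stem cell markers (46.1 and 47.8 to 21.3 and 29.1 FPKM). They were also lower for proliferation markers (161 and 169 to 117 and 142 FPKM) and enterocyte markers (1205 and 1223 to 1011 and 1082 FPKM). Abundant genes weigh most in a sum, and not every gene moved with its list. Among enterocyte genes *Alpi*, *Fabp1* and *Sis* were lower. *Apoa1* (199 and 183, then 293 and 291 FPKM) and *Vil1* (102 and 120, then 157 and 159 FPKM) were higher. *Apoa4*, *Mki67*, *Mcm5* and *Ascl2* overlapped between these groups. Of the immune markers *Cd68* was at 0.774 and 2.01 FPKM in EtOH DMSO and 5.69 and 7.72 FPKM in 4-OHT DMSO, and *Itgam* at 1.96 and 1.19 FPKM and then 0.315 and 0.917 FPKM. Sums also differed with Nec-1. In EtOH organoids they were lower than with DMSO for stem cell (32.6 and 34.8 FPKM), enterocyte (944 and 948 FPKM) and proliferation markers. Paneth, goblet and enteroendocrine sums were higher there. In the 4-OHT Nec-1 library stem cell (14.0 FPKM), Paneth, goblet and proliferation sums were below both DMSO libraries, and enterocyte and enteroendocrine sums above. Single genes again did not all follow. The part of these marker shifts in the differences below was not tested. In bulk RNA fewer cells of a type cannot be told apart from less RNA per cell.

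The promoters of *Fas*, *Cflar* and *Tnfsf10* are shown because these genes are, in turn, the member with a match to the AP-1 site in its window, the gene that the study examined as a target of the transcription factor ATF3, and the member whose level varied most over the libraries. Each run is the 250 bases before an annotated start site on the plus strand, from the RefSeq table for GRCm38.p6, at chr19:34290409-34290658, chr1:58711241-58711490 and chr3:27316827-27317076. For *Cflar* and *Fas* this site lies inside the gene, whose first base is at 58711311 and 34290647. Most of the *Cflar* run and the last bases of the *Fas* run are therefore within the gene. Capitals mark the match to TGANTCA, the AP-1 site.
*Fas* promoter: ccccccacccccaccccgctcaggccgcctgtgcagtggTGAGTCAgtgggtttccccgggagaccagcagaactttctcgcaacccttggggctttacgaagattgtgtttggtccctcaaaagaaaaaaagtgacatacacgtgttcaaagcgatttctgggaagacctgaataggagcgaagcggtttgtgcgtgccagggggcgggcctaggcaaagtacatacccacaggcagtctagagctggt
*Cflar* promoter: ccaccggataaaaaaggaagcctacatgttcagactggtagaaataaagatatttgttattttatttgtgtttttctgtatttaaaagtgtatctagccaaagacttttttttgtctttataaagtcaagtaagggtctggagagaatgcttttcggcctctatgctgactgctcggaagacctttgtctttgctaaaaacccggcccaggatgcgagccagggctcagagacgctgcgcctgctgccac
*Tnfsf10* promoter: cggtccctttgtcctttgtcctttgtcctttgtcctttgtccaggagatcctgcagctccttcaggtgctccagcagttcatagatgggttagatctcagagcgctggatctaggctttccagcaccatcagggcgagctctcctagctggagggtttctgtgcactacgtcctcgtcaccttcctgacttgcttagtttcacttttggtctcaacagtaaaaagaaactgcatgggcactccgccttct

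Windows of 300 bases, 250 before and 50 after such a start site, were present for 7 of the 8 genes, with 3 windows for *Xiap* and 9 in all. They were searched on both strands. TGANTCA occurred in the *Fas* window alone among these 9, at position -211 from the start, and in 7.81% of all 32851 windows. GAAANNGAA, the core of the interferon-stimulated response element, was met by 2 of the 9 windows against 8.56% of all. One match was at position -60 from a start of *Xiap* and the other began at position 8 past the start site used for *Cflar*, outside the run shown. Neither TGACGTCA (the ATF/CRE site, in 1.79% of all windows) nor GGNNNTTCC (an NF-kB site, in 18.5%) occurred in a window of these genes. The *Tnfsf10* window held none of the 4 motifs. *Cflar* and *Casp8* are neighbours on chromosome 1, with 36348 bases between them.

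In EtOH DMSO organoids the levels of the 8 genes spanned a wide range. *Casp8* was by far the highest, at 48.7 and 50.6 FPKM, followed by *Xiap* at 10.8 and 12.1 FPKM and *Casp6* at 7.77 and 7.60 FPKM. *Tnfsf10* (5.38 and 6.43 FPKM) and *Fadd* (5.64 and 4.93 FPKM) overlapped, as did *Tnfrsf10b* (3.11 and 3.74 FPKM) and *Cflar* (2.96 and 3.65 FPKM), and *Fas* was lowest at 2.102 and 1.003 FPKM. RNA of the initiator caspase was therefore far more abundant, per length, than that of its adaptor, its inhibitor and both receptors. *Casp8* stayed first and *Xiap* second in every group. In libraries labelled 4-OHT DMSO *Fadd* stood above *Casp6*, and *Tnfsf10* came after *Tnfrsf10b* and *Cflar*. In the 4-OHT Nec-1 library *Tnfsf10* was the lowest of the 8.

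**Figure D1:**
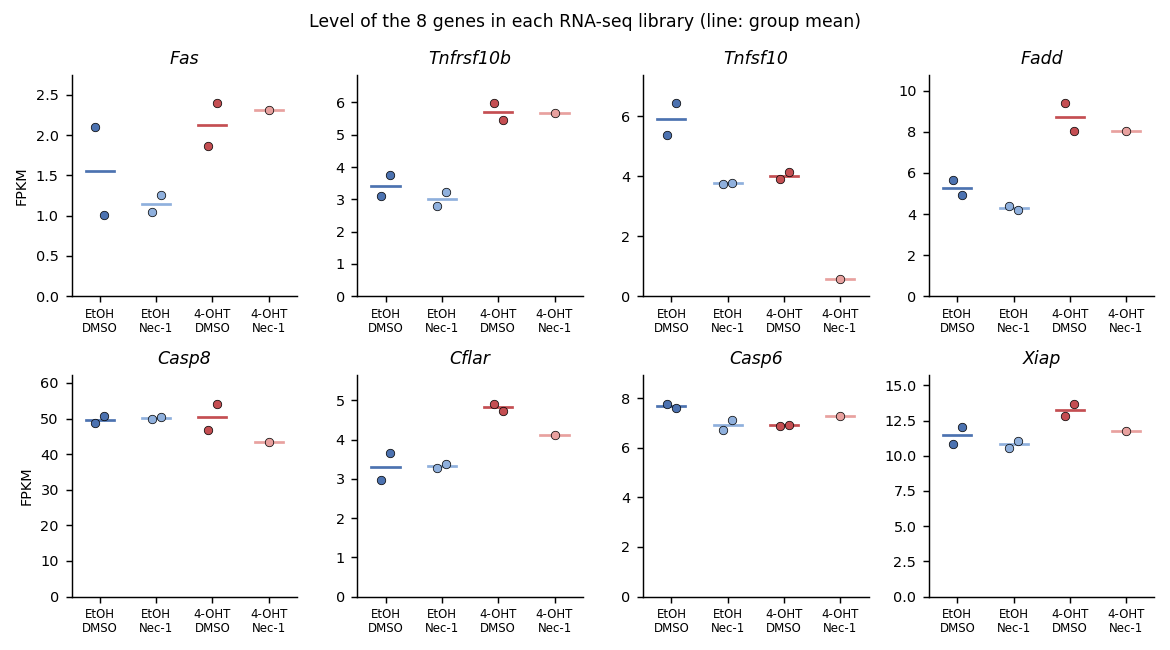
FPKM (y axis, linear from 0, with its own scale for each gene) of the 8 genes in each library, by group on the x axis. Points are libraries and horizontal lines are group means. *Tnfrsf10b*, *Fadd* and *Cflar* sit higher in the libraries labelled 4-OHT, *Casp8* stays between 43.4 and 54.2 FPKM, and *Tnfsf10* drops to 0.570 FPKM in the 4-OHT Nec-1 library.

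The first comparison asked how the death receptor genes differed between organoids labelled 4-OHT and EtOH, both with DMSO. The receptor *Tnfrsf10b*, the adaptor *Fadd* and the inhibitor *Cflar* were higher in 4-OHT DMSO, by 1.67-fold, 1.65-fold and 1.46-fold of mean FPKM, and the ligand *Tnfsf10* was lower, at 0.681 of its EtOH DMSO mean. The other receptor, both caspases and *Xiap* did not pass the test. Thus 4 of 8 genes passed, 3 higher and 1 lower, while 41.2% of all tested genes passed, 24.5% higher and 16.7% lower. That share is close to the share over all genes, so the count says nothing particular of these 8. Their median log2 fold change was 0.26 and that of all genes 0.077. Positions given with each gene are those of the GRCm38.p6 RefSeq annotation. All tests are limma on log2(FPKM + 1) with Benjamini-Hochberg adjustment over all tested genes, and these log2 fold changes are smaller than the ratio of FPKM for low genes. With 2 libraries against 2, values separate with probability 0.333 without any difference. Nothing is therefore read from a lack of overlap alone.

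*Tnfsf10* (ENSMUSG00000039304, chromosome 3, 27317077 to 27339665) encodes TRAIL, the ligand of the *Tnfrsf10b* product. It was at 3.90 and 4.15 FPKM in 4-OHT DMSO, and both values lay below those in EtOH DMSO. The log2 fold change was -0.46 (standard error 0.112, 95% interval -0.74 to -0.17, limma adjusted p = 0.025). It missed the threshold without a filter on low values (limma adjusted p = 0.0569). The same held with only the 4 libraries of the comparison (limma adjusted p = 0.0567). This call was lost without either 4-OHT DMSO library, without the second EtOH DMSO library and without either EtOH Nec-1 library (limma adjusted p up to 0.0836).

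*Fas* (ENSMUSG00000024778, chromosome 19, 34290647 to 34327775) encodes the receptor of FasL. It was at 1.87 and 2.39 FPKM in 4-OHT DMSO, which overlapped the EtOH DMSO pair, whose own values lay 2.095-fold apart. Its log2 fold change of 0.32 had a wide interval, from -0.26 to 0.91 (limma adjusted p = 0.306), and was 0.64 without the first EtOH DMSO library and 0.0094 without the second. *Fasl*, the gene of its ligand, was listed at 0 in all 7 libraries.

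*Tnfrsf10b* (ENSMUSG00000022074, chromosome 14, 69767472 to 69784411) encodes DR5, the death receptor for TRAIL in the mouse. Its FPKM was 5.97 and 5.46 in 4-OHT DMSO, and each of these exceeded both EtOH DMSO values. The log2 fold change was 0.60 (standard error 0.121, 95% interval 0.30 to 0.91, limma adjusted p = 0.0131). Without the first EtOH DMSO library it was 0.50 and missed the threshold (limma adjusted p = 0.0535). With the ligand lower and the receptor higher, the ratio of *Tnfsf10* to *Tnfrsf10b* FPKM within a library was 173% and 172% in EtOH DMSO and 65.3% and 76.1% in 4-OHT DMSO.

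*Fadd* (ENSMUSG00000031077, chromosome 7, 144578323 to 144582441), the adaptor between receptors and caspase-8, was at 9.38 and 8.02 FPKM in 4-OHT DMSO, and no library of one group reached the range of the other. The log2 fold change was 0.62 (standard error 0.114, 95% interval 0.34 to 0.91, limma adjusted p = 0.00975). It was the one gene of the 8 that passed under all 16 alternative settings run, libraries left out in turn included (limma adjusted p up to 0.0449).

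*Casp8* (ENSMUSG00000026029, chromosome 1, 58795233 to 58847503) showed no such difference. Its values of 46.8 and 54.2 FPKM in 4-OHT DMSO lay on both sides of the EtOH DMSO pair. The log2 fold change was 0.02, with a 95% interval of -0.22 to 0.26 (limma adjusted p = 0.884), so that a change of the size seen for *Fadd* lay outside the interval.

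*Cflar* (ENSMUSG00000026031, chromosome 1, 58711311 to 58758884) was at 4.91 and 4.74 FPKM in 4-OHT DMSO, above both EtOH DMSO libraries. The log2 fold change was 0.44 (standard error 0.113, 95% interval 0.16 to 0.72, limma adjusted p = 0.0278). Its direction was the same under all 16 alternatives, but the call depended on the scaling of the libraries: with each library centred on its median the difference was 0.29 (limma adjusted p = 0.0617), and with upper quartile scaling 0.31 (limma adjusted p = 0.0772). The call was also lost without a filter on low values (limma adjusted p = 0.0624) and with only the 4 libraries of the comparison (limma adjusted p = 0.0646). It was lost as well without either 4-OHT DMSO library, without the first EtOH DMSO library or without either EtOH Nec-1 library. With libraries left out in turn the difference ranged from 0.33 to 0.56.

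*Casp6* (ENSMUSG00000027997, chromosome 3, 129901415 to 129914112), an effector caspase, was at 6.89 and 6.92 FPKM in 4-OHT DMSO, under both EtOH DMSO libraries. The difference was small, -0.14 (95% interval -0.34 to 0.069, limma adjusted p = 0.233). *Xiap* (ENSMUSG00000025860, chromosome X, 42059613 to 42109664), whose product binds and blocks effector caspases, was at 12.9 and 13.7 FPKM, again without overlap. Its log2 fold change was 0.20 (95% interval -0.031 to 0.43, limma adjusted p = 0.139).

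Scaling mattered in this comparison because centring each library on its median shifted all log2 fold changes by -0.157. The calls over all genes then changed from 3117 higher and 2120 lower to 2213 higher and 3187 lower, and those among the 8 genes from 3 higher and 1 lower to 2 higher and 2 lower. *Fadd* (0.47) and *Tnfrsf10b* (0.45) stayed higher and *Tnfsf10* (-0.61) stayed lower. *Casp6* passed the test at -0.29 (limma adjusted p = 0.036), and *Casp8* turned from 0.02 to -0.14 without passing.

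**Figure D2:**
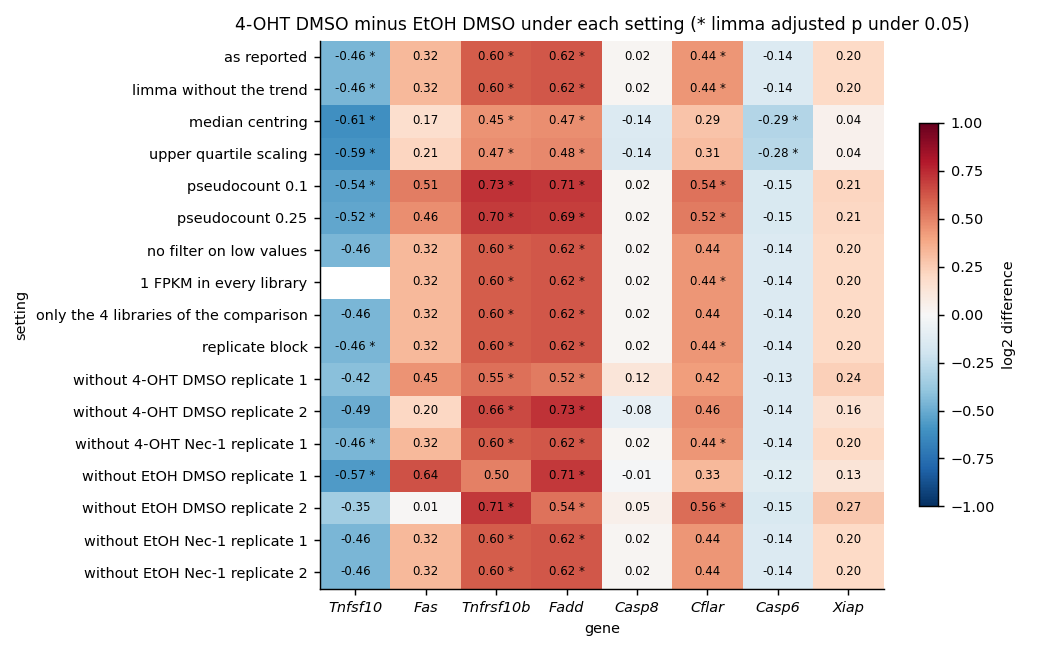
Log2 difference between 4-OHT DMSO and EtOH DMSO (colour, and number in each cell) for each of the 8 genes (x axis) under each setting (y axis), with a star where the limma adjusted p was under 0.05. *Fadd* carries a star in every setting and *Tnfrsf10b* in all but 1. *Cflar* loses it in 9 of 16 alternatives, either scaling among them. The blank cell is *Tnfsf10*, which did not reach 1 FPKM in every library.

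Ratios between these genes within a library do not depend on such scaling. *Cflar* amounted to 6.08%, 7.20%, 6.54% and 6.71% of *Casp8* in the 4 EtOH libraries. In the libraries labelled 4-OHT it was 10.5% and 8.75% with DMSO and 9.49% with Nec-1. *Cflar* RNA was thus higher relative to *Casp8* RNA in each of the 3 4-OHT libraries than in any EtOH library. *Fadd* relative to *Casp8* separated in the same way, at 8.27% to 11.6% in EtOH and 14.8% to 20.05% in 4-OHT, and *Xiap* relative to *Casp8* at 21.1% to 23.8% and 25.3% to 27.5%. *Cflar* relative to *Fadd* did not, since it was 52.4% and 73.9% in EtOH DMSO and 52.4% and 59.1% in 4-OHT DMSO. The ratios are given as values and were not tested. As *Casp8* differed little, ratios to it mostly repeat the differences of the other gene. The share of all genes whose ratio to *Casp8* separates was not determined.

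**Figure D3:**
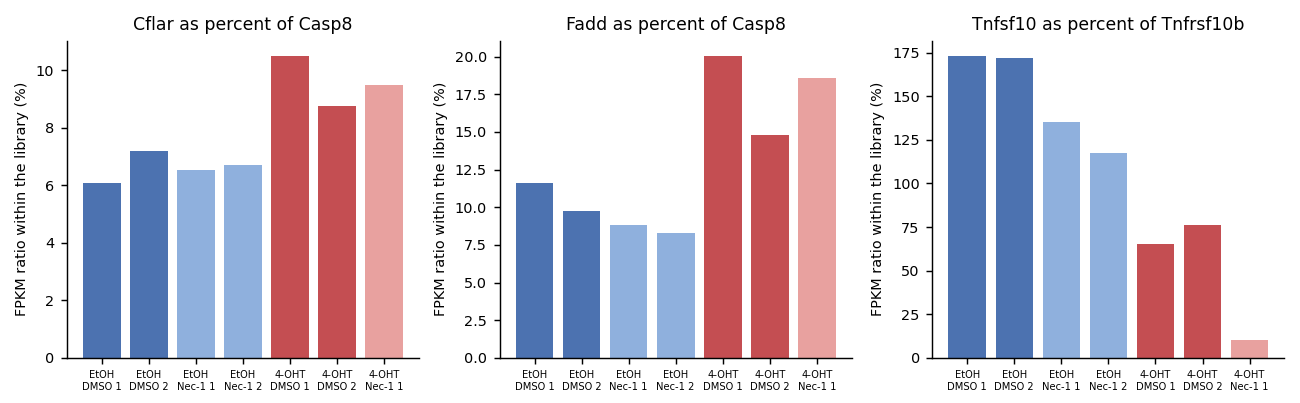
FPKM of one gene as a percentage of another within each library (y axis, linear from 0), for the 7 libraries on the x axis, with bars coloured by group. *Cflar* against *Casp8* is 6.08% to 7.20% in EtOH and 8.75% to 10.5% in 4-OHT libraries, and *Tnfsf10* against *Tnfrsf10b* runs from 173% down to 10.05%.

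The next comparison asked what Nec-1 did in organoids labelled EtOH. None of the 8 genes passed (0 of 8 by limma, 1 of 8 at an unadjusted p under 0.05), and 0.22% of all tested genes did, 28 in number, with 1689 at an unadjusted p under 0.05. The median log2 fold change was -0.14 for the 8 genes and -0.094 for all genes. *Tnfsf10* had the largest difference of the 8. It was at 3.76 and 3.79 FPKM with Nec-1, below both DMSO libraries, with a log2 fold change of -0.53 (standard error 0.112, 95% interval -0.81 to -0.25, limma adjusted p = 0.201).

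*Fadd* was at 4.39 and 4.17 FPKM with Nec-1, without overlap, and its log2 fold change was -0.25 (95% interval -0.53 to 0.035, limma adjusted p = 0.423). *Casp6*, at 6.73 and 7.10 FPKM, lay below both DMSO libraries as well, with -0.13 (95% interval -0.34 to 0.071, limma adjusted p = 0.529). The other genes overlapped between the groups. Separation alone is again not read as a result, and its share over all genes was not determined. *Cflar* was at 3.27 and 3.38 FPKM (log2 fold change 0.012, 95% interval -0.27 to 0.29), and *Casp8* at 49.98 and 50.44 FPKM (0.016, 95% interval -0.22 to 0.25). For the receptors and the caspase inhibitor the pairs were 1.04 and 1.25 FPKM for *Fas*, 2.78 and 3.22 FPKM for *Tnfrsf10b*, and 10.6 and 11.1 FPKM for *Xiap*. Their limma adjusted p lay between 0.644 and 0.762.

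In organoids labelled 4-OHT, Nec-1 was given to 1 library, so this comparison has no replicate check and was not tested. Differences are given against each 4-OHT DMSO library. *Tnfsf10* was the one gene of the 8 that lay at least 1 log2 unit below each of them, against 1.21% of the 12036 genes whose mean in these 3 libraries reached 1 FPKM. Its FPKM was 0.570, against 3.90 and 4.15 with DMSO, which is 0.142 of their mean and -1.64 and -1.71 on the log2 scale. The gap between the DMSO libraries was far smaller than this fall, but does not measure how much a lone Nec-1 library can vary. The level with Nec-1 also lay under 1 FPKM. The ratio of *Tnfsf10* to *Tnfrsf10b* was 10.05%, the lowest of the 7 libraries.

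The other 7 genes differed little. *Cflar* was at 4.12 FPKM, -0.21 and -0.17 from the DMSO libraries, and *Casp8* was at 43.4 FPKM, -0.11 and -0.31 from them. *Xiap*, at 11.8 FPKM, was also below both. With *Tnfsf10*, 4 of 8 genes lay under each of the DMSO libraries, against 50.6% over all genes. *Casp6*, at 7.27 FPKM, was 0.068 and 0.062 above them, the 1 gene of the 8 above each, against 24.5% of all genes. *Tnfrsf10b* (5.67 FPKM), *Fadd* (8.05 FPKM) and *Fas* (2.32 FPKM) fell between the DMSO libraries. The median was -0.13 for the 8 genes and -0.089 for all genes.

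With Nec-1 the values of *Tnfrsf10b*, *Fadd* and *Cflar* were above every EtOH library, as they were with DMSO. *Fas* was above every EtOH library with Nec-1 but not in both libraries with DMSO. Against the EtOH Nec-1 pair the 4-OHT Nec-1 library was 0.75 and 0.81 higher for *Fadd* on the log2 scale, 0.66 and 0.82 higher for *Tnfrsf10b*, 0.56 and 0.70 higher for *Fas*, and 0.22 and 0.26 higher for *Cflar*. *Tnfsf10* was 1.60 and 1.61 log2 units lower. No test was made of these differences, since 1 side has a single library. The share of all genes above every EtOH library was not determined, so nothing particular of these genes is read from the separation.

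Whether the Nec-1 effect differed between 4-OHT and EtOH organoids was tested as an interaction, with the lone library assumed to vary like the paired ones. None of the 8 genes passed (0 of 8 by limma, 1 of 8 at an unadjusted p under 0.05), and 0.0551% of all tested genes did, 7 in number, with 1059 at an unadjusted p under 0.05. For *Tnfsf10* the difference of effects was -1.15 (standard error 0.177, 95% interval -1.59 to -0.70, limma adjusted p = 0.145). For *Cflar* it was -0.20 (95% interval -0.65 to 0.25) and for *Casp8* -0.23 (95% interval -0.60 to 0.15). The limma adjusted p of the genes other than *Tnfsf10* lay between 0.747 and 0.896.

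**Figure D4:**
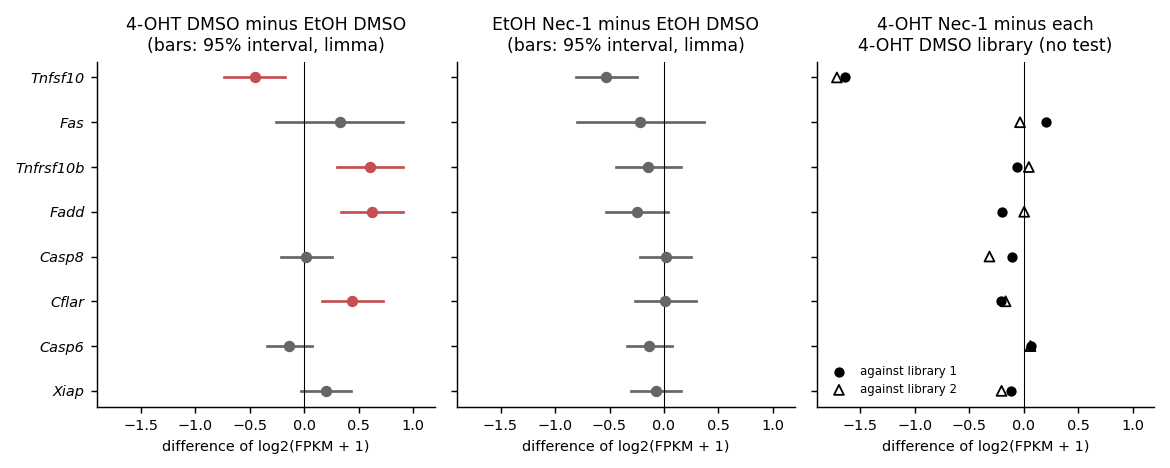
Differences of log2(FPKM + 1) on the x axis for the 8 genes on the y axis. The left and middle panels show limma estimates with 95% intervals, red where the adjusted p was under 0.05, and the right panel shows the 4-OHT Nec-1 library minus each 4-OHT DMSO library. *Tnfsf10* lies at -1.64 and -1.71 on the right, where the others lie between -0.31 and 0.21.

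The rest of the pathway was followed in lists of related genes, shown in the plot of pathway lists. Each count of genes called in 4-OHT DMSO stands beside the 24.5% higher and 16.7% lower over all tested genes, and nothing particular is read from the counts of the lists. Among other death ligands and receptors, 7 of 14 were tested, and 6 were higher and 0 lower in 4-OHT DMSO, with a median of 1.06 on the log2 scale. *Tnf*, the inflammatory cytokine that signals through TNFR1, was at 1.00 and 1.38 FPKM in EtOH DMSO and 13.6 and 13.9 FPKM in 4-OHT DMSO (log2 fold change 2.76). *Tnfrsf11b*, which encodes osteoprotegerin, a soluble decoy that binds TRAIL, was at 0.168 and 0.223 FPKM and then at 5.19 and 2.69 FPKM (2.00). *Tnfrsf12a*, the TWEAK receptor, rose by 1.28. *Tnfrsf1a*, which encodes TNFR1, was the 1 tested gene of the list that did not pass, at 31.5 and 35.8 FPKM and at 29.6 and 34.2 FPKM.

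All 12 adaptors and complex partners were tested, and 8 were higher and 2 lower, with a median of 0.66. *Daxx*, which encodes a Fas-binding and chromatin protein, rose by 2.05, *Pea15a*, whose product holds a death effector domain, by 1.77, and *Ripk1*, the kinase that Nec-1 inhibits, by 1.04. *Ripk1* FPKM was 3.37 and 3.66 in EtOH DMSO and 8.32 and 8.26 in 4-OHT DMSO. *Dap3* (-0.74) and the Fas-associated factor *Faf1* (-0.49) were lower. With Nec-1 in the 4-OHT library *Daxx* was at 9.95 FPKM against 22.7 and 24.9 FPKM with DMSO, the 1 gene of this list past the fold threshold, while *Ripk1* stayed at 7.84 FPKM.

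Of 8 other caspases 6 were tested, with 2 higher, 3 lower and a median of -0.28. The inflammatory caspase gene *Casp4* rose by 0.48. The apoptosome caspase *Casp9* (-1.10) and the inflammatory *Casp1* (-0.57) were lower. Calls for *Casp4* and *Casp9* were lost under 4 and 6 of 16 alternatives, with limma adjusted p up to 0.0772 and 0.132. These included leaving out the second 4-OHT DMSO library or the second EtOH DMSO library for *Casp4*, and any single EtOH library for *Casp9*. *Casp9* was at 3.07 and 1.17 FPKM in 4-OHT DMSO, and its log2 fold change ranged from -1.55 to -0.65 as libraries were left out.

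Of 11 tested inhibitors of apoptosis and their antagonists, 3 were higher and 2 lower, a share close to the 41.2% of all tested genes called, with a median of 0.093. *Xaf1*, an interferon-inducible antagonist of XIAP, rose by 3.07, from 0.229 and 0.274 FPKM to 7.87 and 11.4 FPKM, and was at 2.00 FPKM with Nec-1. *Birc3* (cIAP2), a ubiquitin ligase that acts on RIPK1, rose by 1.61 and *Birc5* (survivin) by 0.54. *Naip6* (-1.21) and *Naip5* (-0.48) were lower, but these belong to a family of close copies that may share fragments, so their values are uncertain. The call of *Naip5* was lost without the first 4-OHT DMSO library or the second EtOH DMSO library (limma adjusted p up to 0.0561). In the executioner stage, 11 tested genes gave 2 higher and 1 lower with a median of -0.046. *Gsn*, which encodes the caspase substrate gelsolin, rose by 1.79, and *Cycs*, cytochrome c, by 0.64. *Dffa*, the inhibitor of the caspase-activated DNase, fell by 0.31, a call lost under 10 of 16 alternatives, among them the removal of any one EtOH or 4-OHT DMSO library (limma adjusted p up to 0.131). With each library centred on its median the calls over these 5 lists were 6 and 0 for ligands and receptors (higher and lower), 7 and 2 for adaptors, 1 and 3 for other caspases, 3 and 3 for inhibitors of apoptosis, and 2 and 3 for the executioner stage. The median of the inhibitor list then changed sign, to -0.064.

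**Figure D5:**
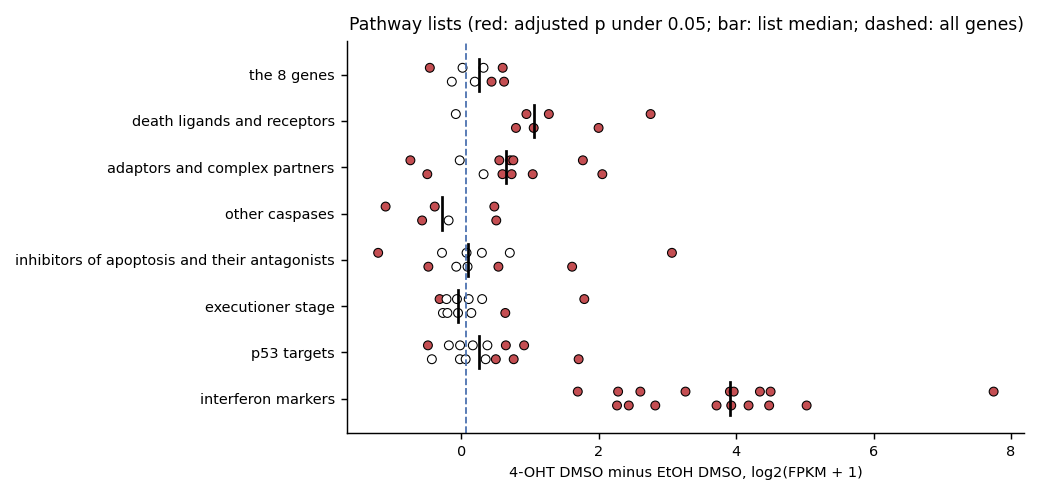
Log2 difference between 4-OHT DMSO and EtOH DMSO (x axis) for each tested gene of the pathway lists (rows), as points that are red where the limma adjusted p was under 0.05. Black bars are list medians and the dashed line is the median of all tested genes, 0.077. The medians run from -0.28 for other caspases to 3.91 for interferon markers, with 0.26 for the 8 genes.

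With Nec-1 in EtOH organoids none of these 5 lists held a gene past the limma threshold (0 of 47 genes, 7 at an unadjusted p under 0.05), and the same held for the difference of Nec-1 effects (0 of 47 genes, 3 at an unadjusted p under 0.05). In the 4-OHT Nec-1 library *Daxx* and *Xaf1* were the 2 of 47 genes at least 1 log2 unit below each DMSO library, against 1.21% of all genes. *Tnf* was at 7.06 FPKM there, below both DMSO libraries but above every EtOH library.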

How the data were processed

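RNA-seq of organoids was described by the authors as run on an Illumina HiSeq X instrument and analysed as in an earlier study. The submitters' processing notes name HISAT2 2.1.0, StringTie 1.3.3b and the build mm10, with no parameters. The authors deposited FPKM, 1 value per Ensembl gene and library, already scaled for transcript length and mapped fragments, so fragment counts, strand setting and the handling of fragments shared by similar genes are not known. One file repeated the columns of 2 other libraries to within rounding, and 0 columns were unmapped. Of 54838 identifiers, 54723 had a symbol and 26643 had no signal in any library. Not analysed here were the 2 CUT&Tag samples.

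The members and all gene lists were chosen with earlier results of these data known. Groups follow the labels, and no library was left out of the reported values. With limma 3.58.1 in R 4.3.3 (trend in eBayes), log2(FPKM + 1) was fitted with 1 mean per group over all 7 libraries and the 12702 genes that reached 1 FPKM in 2 or more libraries, leaving 3 residual degrees of freedom. P-values were adjusted over all tested genes (Benjamini-Hochberg, threshold 0.05). The lone 4-OHT Nec-1 library was compared with each 4-OHT DMSO library over the 12036 genes whose mean in these 3 libraries reached 1 FPKM, and a gene counted when at least 1 log2 unit on the same side of each. Depth was estimated from the spacing of values between 0.003 and 0.2 FPKM, by a method that cannot see factors of 2. Replicates correlated across tested genes with Pearson's r of 0.984 in EtOH DMSO, 0.989 with Nec-1 in EtOH and 0.965 in 4-OHT DMSO, and genes are not independent replicates. The fit was tested on simulated data.

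Named are the 8 members, *Mettl3*, up to 3 rises and 3 falls per list and comparison past the threshold, and for *Tnfsf10*, *Cflar* and *Fas* the 3 genes of most similar pattern. *Tnfrsf1a*, *Fasl*, *Irf9* and the markers were named after their values were seen. The lists were other death ligands and receptors, adaptors and complex partners, other caspases, inhibitors of apoptosis and their antagonists, the executioner stage, interferon markers and p53 targets. Promoter windows and gene positions came from RefSeq tables for GRCm38.p6. A planned search of protein sequences was not run. Some items are not reported here. Alternatives were median centring, scaling to the upper quartile, limma without its trend, other filters (none, 1 FPKM in every library, means of 0.1 or 5 FPKM), pseudocounts of 0.1 and 0.25, only the 4 libraries of a comparison, a replicate block, the pooled-spread contrast and each library left out. The block in the pooled-spread contrast was chosen after seeing the data. Other tools were matplotlib 3.10.9, pandas 2.3.3 and numpy 2.4.6 under Python 3.11.15.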

Additional observations from a re-analysis of the deposited data

How the results depend on the processing

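Of the 8 genes, *Fadd* passed in 4-OHT DMSO against EtOH DMSO under all 16 alternatives and *Tnfrsf10b* under 15. The calls of *Cflar* and *Tnfsf10* were lost under 9 of 16 and 7 of 15, and 2 of the 8 genes were called without a filter on low values and 2 with only the 4 libraries of the comparison, where fewer residual degrees of freedom remain. With libraries left out in turn 2 to 4 were called, with 2 called without either 4-OHT DMSO library, the first EtOH DMSO library or either EtOH Nec-1 library. *Casp8* reversed to -0.14 with median centring and -0.14 with upper quartile scaling, and ranged from -0.084 to 0.12 with libraries left out. In EtOH Nec-1 against EtOH DMSO *Xiap* reversed to 0.024 with either scaling, and leaving out libraries gave ranges of -0.53 to 0.10 for *Fas*, -0.012 to 0.044 for *Casp8* and -0.10 to 0.13 for *Cflar*. None of these values passed the limma threshold, and the cause was not tested. The Nec-1 difference of effects for *Fas* ranged from -0.012 to 0.62.

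Counts over all genes moved more. In EtOH Nec-1 against EtOH DMSO 28 genes passed, 8 without a filter, 79 with only 4 libraries, 43 with upper quartile scaling and 9 to 75 with libraries left out, with 75 without either 4-OHT DMSO library and 9 to 14 without a library of the comparison itself. For the difference of Nec-1 effects 7 passed, 3 with 1 FPKM in every library and 219 without a filter. That count was 1 to 337 with libraries left out: 337 and 40 without the first and second 4-OHT DMSO library, 1 without either EtOH DMSO library, and 1 and 4 without the EtOH Nec-1 libraries. In 4-OHT Nec-1 against 4-OHT DMSO 238 genes passed the fold rule, 378 with a pseudocount of 0.1, and 790 and 425 without the first and second DMSO library. With a mean of at least 5 FPKM 0 of the 8 genes were called there, since *Tnfsf10* was then not included. No member was called in EtOH Nec-1 or in the difference of effects under any alternative.

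No shared effect of the replicate number was seen: deviations from the group means correlated between same-numbered libraries at -0.040, 0.0065 and -0.012. These values cannot show whether same-numbered libraries came from 1 culture or batch. With the replicate block 4697 genes were called in 4-OHT DMSO against EtOH DMSO, 19 in EtOH Nec-1 against EtOH DMSO, 4 for the difference of effects and 90 in the pooled-spread contrast of 4-OHT Nec-1, with 4, 0, 0 and 1 of the 8 genes. Changes of genes near 1 FPKM, *Fas* and in the 4-OHT Nec-1 library *Tnfsf10* among them, rest on few fragments of unknown number.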

Other observations

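Interferon markers, genes that cells switch on after interferon or viral RNA sensing, stood apart from the death receptor lists. All 17 tested of 18 were higher in 4-OHT DMSO than in EtOH DMSO, against 24.5% of all tested genes. Their median log2 fold change was 3.91, and the rise held for the 3 largest, *Isg15*, *Ifit3* and *Ifit1*, under every alternative run. *Ifit1* went from 1.44 and 1.45 FPKM to 43.4 and 68.2 FPKM. In the 4-OHT Nec-1 library 15 of 18 lay at least 1 log2 unit below each DMSO library, against 1.21% of all genes. Their median was -2.11 and that of all genes -0.089, and *Irf9* was the 1 gene above both. *Tnfsf10*, which is known as an interferon-inducible gene, shared the fall with Nec-1 but not the rise, since its highest levels were in EtOH DMSO. With Nec-1 in EtOH organoids 0 of 17 passed by limma (1 at an unadjusted p under 0.05), against 0.22% of all tested genes. The median was 0.031. For the difference of Nec-1 effects 3 of 17 passed, *Ifitm3* (-3.91), *Oas2* (-3.12) and *Bst2* (-2.45), against 0.0551% of all tested genes. All 3 calls were lost without any single EtOH library (limma adjusted p up to 0.165 for *Ifitm3*, 0.267 for *Oas2* and 0.1997 for *Bst2*). Those of *Oas2* and *Bst2* were also lost in some settings with all libraries kept (limma adjusted p up to 0.143).

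Targets of p53, to which *Fas* and *Tnfrsf10b* also belong in textbook accounts, were called about as often in 4-OHT DMSO as the 41.2% of all tested genes. Of 14 tested, 5 were higher and 1 lower, with a median of 0.26 (5 higher and 3 lower with median centring). *Plk2*, a stress-inducible kinase gene, rose by 1.71, *Btg2*, an antiproliferative gene, by 0.92 and *Gdf15*, a stress cytokine gene, by 0.76. *Bbc3*, which encodes the pro-apoptotic protein PUMA, was lower, at 3.04 and 3.06 FPKM against 4.80 and 4.53 FPKM (log2 fold change -0.48). With Nec-1 0 of 14 passed in EtOH organoids (3 at an unadjusted p under 0.05), 0 of 14 in the difference of effects (0 at an unadjusted p under 0.05), and 0 of 14 reached the fold threshold in 4-OHT organoids.

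The genes with the most similar pattern over the 7 libraries, by root mean square difference of log2(FPKM + 1) after centring on EtOH DMSO, were *Golga5* (0.0317), *Coro1c* (0.0403) and *Spns1* (0.0408) for *Cflar*, and *Rbks* (0.0938), *Mrgbp* (0.116) and *Sap30l* (0.116) for *Fas*. For *Tnfsf10* the nearest was *Ino80d* (0.219), followed by the miRNA gene *Mir1968* (0.253) and *Spink1* (0.345). These differences were larger than those for *Cflar* and *Fas*. Like *Tnfsf10*, each of these genes was lowest in the 4-OHT Nec-1 library, which has no replicate. *Ino80d* held 3.84 and 4.93 FPKM (EtOH DMSO), then 3.73 and 3.90 FPKM with Nec-1. The libraries labelled 4-OHT held 3.38 and 3.15 FPKM with DMSO and 0.140 FPKM with Nec-1.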
